A study of Homo sapiens with 29 samples.

Results

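The genes described here are 94 protein-coding genes of membrane traffic and autophagy, out of 4592 genes listed for the elongation measurement. The rule reads symbols and no measured values, but its families were picked with earlier results of these data known. A gene was a member when its current symbol belonged to 1 of these families: VPS, SNX, STX, STXBP, EXOC, COG, TRAPPC, GOLGA, the adaptor complex subunits (AP), OSBPL, SEC, ATG, WDFY, ITSN, SYT, NBEA or ZDHHC. No GGA gene was listed. The 94 members lie on 22 chromosomes, 50 on the plus and 44 on the minus strand, and are 60.3 to 298 kb wide with a median of 107 kb (95% interval 89.6 to 129 kb), against 108 kb over all listed genes.

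Membrane traffic moves proteins and lipids between the organelles of a cell in small carriers. Coats and adaptors such as the COPII coat (SEC23A, SEC24A, SEC31A) and the AP complexes pick the cargo and shape the carrier, tethers such as the exocyst (EXOC), COG and TRAPP complexes catch it at the target membrane, and syntaxins with their STXBP partners drive fusion. Sorting nexins and VPS proteins return cargo from endosomes or send it to the lysosome, oxysterol-binding proteins exchange lipids where membranes touch, and ATG proteins build the autophagosome, which delivers cytoplasm to the lysosome. Every cell needs most of these genes, whereas the synaptotagmins are calcium sensors of regulated secretion, best known from neurons and endocrine cells.

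DRB/TTchem-seq was measured in HEK293, a line of human embryonic kidney cells, that had been infected for 4 days with lentivirus carrying a control hairpin (shCtrl) or a hairpin against THOC5 (shTHOC5), a subunit of the THO complex that accompanies nascent mRNA. In both groups 100 μM DRB was present for 3.5 h. DRB inhibits CDK9 and thereby holds RNA polymerase II (Pol II) near the promoter. After its removal, RNA made during a pulse of 1 mM 4SU, a thiol-labelled uridine, was sequenced 10, 20, 30 or 40 min after release. Each hairpin and time was 1 dish and 1 library, 8 libraries in all, without replicates. The 4 times matched between the hairpins give 4 pairs, over which an exact two-sided permutation test cannot go below p = 0.125, and no test was run. A wave peak is the position that the authors' pipeline called for the wave of released Pol II. It lies between 2 kb upstream and 120 kb downstream of the transcription start site (TSS) and is given here in kb from the TSS. A call at -2.0 kb is the first position of this window and lies upstream of the TSS. Whether it stands for no wave found is not stated in the sources used here. Intervals are 95% intervals over genes (exact binomial for medians, Wilson for shares) and cover how genes differ within these libraries, not how cultures differ. The comparison asks whether Pol II had travelled less far into these genes after depletion of THOC5.

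THOC5 has no entry in the tables, which leaves its depletion unchecked in these libraries. Of the markers of this cell line, PAX2, a kidney transcription factor, was listed at 57.7 rpm (reads per 1000000) in shCtrl and 12.3 rpm in shTHOC5, and CDH2, a cadherin, at 16.7 and 104 rpm. The blood gene PTPRC had 3.07 and 9.94 rpm, and EYA1, CDH5 and COL3A1 are not listed. PAX2 and CDH2 thus moved in opposite directions, and their part in the results was not tested. Sequencing depth is not known, because the coverage was deposited as 1 value per gene and hairpin that sums to 1000000 over the listed genes.

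A wave starts at the promoter, so the promoter windows of 4 members around which the results turn are printed before their values. They are RefSeq windows on GRCh38.p14, 250 bases before to 50 bases after the annotated start, written 5′ to 3′ on the strand of the gene. The bases after the start are in capitals. AP2A2, SNX6 and ZDHHC20 are shown because only these members passed the authors' filters for an elongation rate under both hairpins, and OSBPL3 because its wave differed most between the hairpins at 10 min among the genes named below.
AP2A2, chr11:925620-925919, plus strand, start 989 bp downstream of the GENCODE start: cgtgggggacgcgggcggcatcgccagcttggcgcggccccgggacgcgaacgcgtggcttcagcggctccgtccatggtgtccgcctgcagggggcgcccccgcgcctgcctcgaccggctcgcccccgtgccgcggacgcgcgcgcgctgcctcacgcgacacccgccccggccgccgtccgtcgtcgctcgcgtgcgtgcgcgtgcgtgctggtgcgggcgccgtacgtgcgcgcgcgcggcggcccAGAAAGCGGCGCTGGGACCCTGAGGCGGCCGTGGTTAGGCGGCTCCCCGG
SNX6, chr14:34630099-34630398, minus strand, start 12 bp downstream: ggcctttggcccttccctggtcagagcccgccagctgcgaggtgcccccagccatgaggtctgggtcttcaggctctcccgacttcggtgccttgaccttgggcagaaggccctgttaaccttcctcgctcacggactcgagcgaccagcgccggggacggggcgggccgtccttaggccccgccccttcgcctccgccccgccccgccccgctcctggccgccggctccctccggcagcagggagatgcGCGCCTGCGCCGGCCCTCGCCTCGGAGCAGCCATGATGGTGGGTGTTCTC
ZDHHC20, chr13:21459254-21459553, minus strand, start 67 bp downstream: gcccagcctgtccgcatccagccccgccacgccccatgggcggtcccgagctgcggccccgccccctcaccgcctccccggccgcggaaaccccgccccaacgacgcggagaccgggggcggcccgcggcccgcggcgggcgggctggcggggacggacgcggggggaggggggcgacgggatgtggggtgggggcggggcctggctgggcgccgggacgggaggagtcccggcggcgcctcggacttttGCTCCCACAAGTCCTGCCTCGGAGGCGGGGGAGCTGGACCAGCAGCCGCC
OSBPL3, chr7:24980129-24980428, minus strand, start 1456 bp downstream: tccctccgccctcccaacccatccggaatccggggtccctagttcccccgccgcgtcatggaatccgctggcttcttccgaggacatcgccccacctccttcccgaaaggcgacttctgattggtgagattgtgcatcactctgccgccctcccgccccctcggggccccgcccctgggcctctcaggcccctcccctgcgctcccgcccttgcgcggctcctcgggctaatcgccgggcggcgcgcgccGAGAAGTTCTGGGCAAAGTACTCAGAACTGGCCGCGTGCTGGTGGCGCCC
All 4 windows are rich in G and C, with a GC share of 80.3% in AP2A2, 72.3% in SNX6, 81.0% in ZDHHC20 and 69.7% in OSBPL3. They hold 60, 28, 40 and 30 CpG dinucleotides.

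Such GC-rich starts are common to the group. A RefSeq start could be matched to 78 of the 94 members, with a median GC share of 69.0% (66.7% to 71.7%) and a median of 28.5 CpG (25.0 to 33.0), against 65.3% and 26.0 CpG over the 3679 listed genes that have a window. The palindromic letters TCACGTGA, the core of the CLEAR element through which TFEB is known to drive lysosome and autophagy genes, were present in 1 member window, that of OSBPL8 (1.28%), against 1.49% of the listed genes and 0.980% of all 35116 windows of the same length in the table. The shorter E-box CACGTG, which lies inside the former and like it reads the same on both strands, was present in 10 windows (12.8%), against 8.67% of the listed genes and 7.26% of all windows. These are matches of letters and not binding sites.

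In THOC5-depleted cells, the wave peaks of the members most often lay at the same place as in control cells or nearer to the TSS. At 30 min, 47 of the 94 members had their wave peak more than 1 kb nearer to the TSS in shTHOC5 (50.0%, interval 40.1% to 59.9%), where 46.6% of all listed genes did, and 25 had it more than 1 kb farther (all genes 21.5%). At 10 min 35 were nearer and 11 farther (all genes 41.1% and 16.9%), at 20 min 31 and 17 (41.0% and 20.0%), and at 40 min 41 and 24 (40.8% and 28.4%). The share of all genes lay inside the interval of the members' share in each of these 8 counts. Against this stood members with exactly the same position under both hairpins. They numbered 42 at 10 min, 29 at 20 min and 11 each at 30 and 40 min. These are 44.7%, 30.9%, 11.7% and 11.7% of the members (all genes 33.3%, 25.2%, 18.3% and 15.4%). At 10 min the share of all genes lay below the members' interval of 35.0% to 54.7%. All equal positions at 10 min were calls at the first or last position of the window.

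The median member had its wave peak at 3.01 kb (-2.0 to 9.03) in shCtrl and -2.0 kb (-2.0 to 1.41) in shTHOC5 at 10 min. The latter is the first position of the window, which was the call in 54 of the 94 members in that library. At 20 min the values were 4.09 and 3.13 kb, at 30 min 14.4 kb (8.15 to 34.1) and 5.62 kb (4.07 to 7.67), and at 40 min 11.2 and 9.58 kb. Over all listed genes the medians were 14.7, 7.67, 17.3 and 17.5 kb in shCtrl and 0.579, 4.35, 6.96 and 10.8 kb in shTHOC5. The median member thus lay nearer to the TSS than the median gene in each of the 8 libraries. Coverage differed too, as 64.9% of the members and 52.7% of all genes reached 100 rpm in shCtrl. Members that reached it under both hairpins had medians of 3.16, 4.61, 12.6 and 11.5 kb in shCtrl. All genes so covered had 4.94, 6.48, 10.8 and 12.4 kb. In shTHOC5 the medians were -2.0, 4.07, 5.95 and 9.52 kb against -2.0, 4.28, 6.76 and 9.59 kb. The median member so covered lay farther at 30 min in shCtrl, level at 10 min in shTHOC5 and nearer elsewhere. The median of the 94 members advanced at each step in shTHOC5, whereas in shCtrl it fell back between 30 and 40 min. Member by member, the median difference (shTHOC5 minus shCtrl) was 0 kb except at 30 min, where it was -0.981 kb (-2.05 to 0). The mean differences were -8.79, -0.577, -14.3 and -3.88 kb at the 4 times (all genes -9.02, -6.16, -9.26 and -2.68 kb), since in some members the calls lay far apart. At 30 min 23 members (24.5%, all genes 19.7%) lay more than 20 kb nearer in shTHOC5 and 5 (5.32%, all genes 7.43%) more than 20 kb farther.

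**Figure D1:**
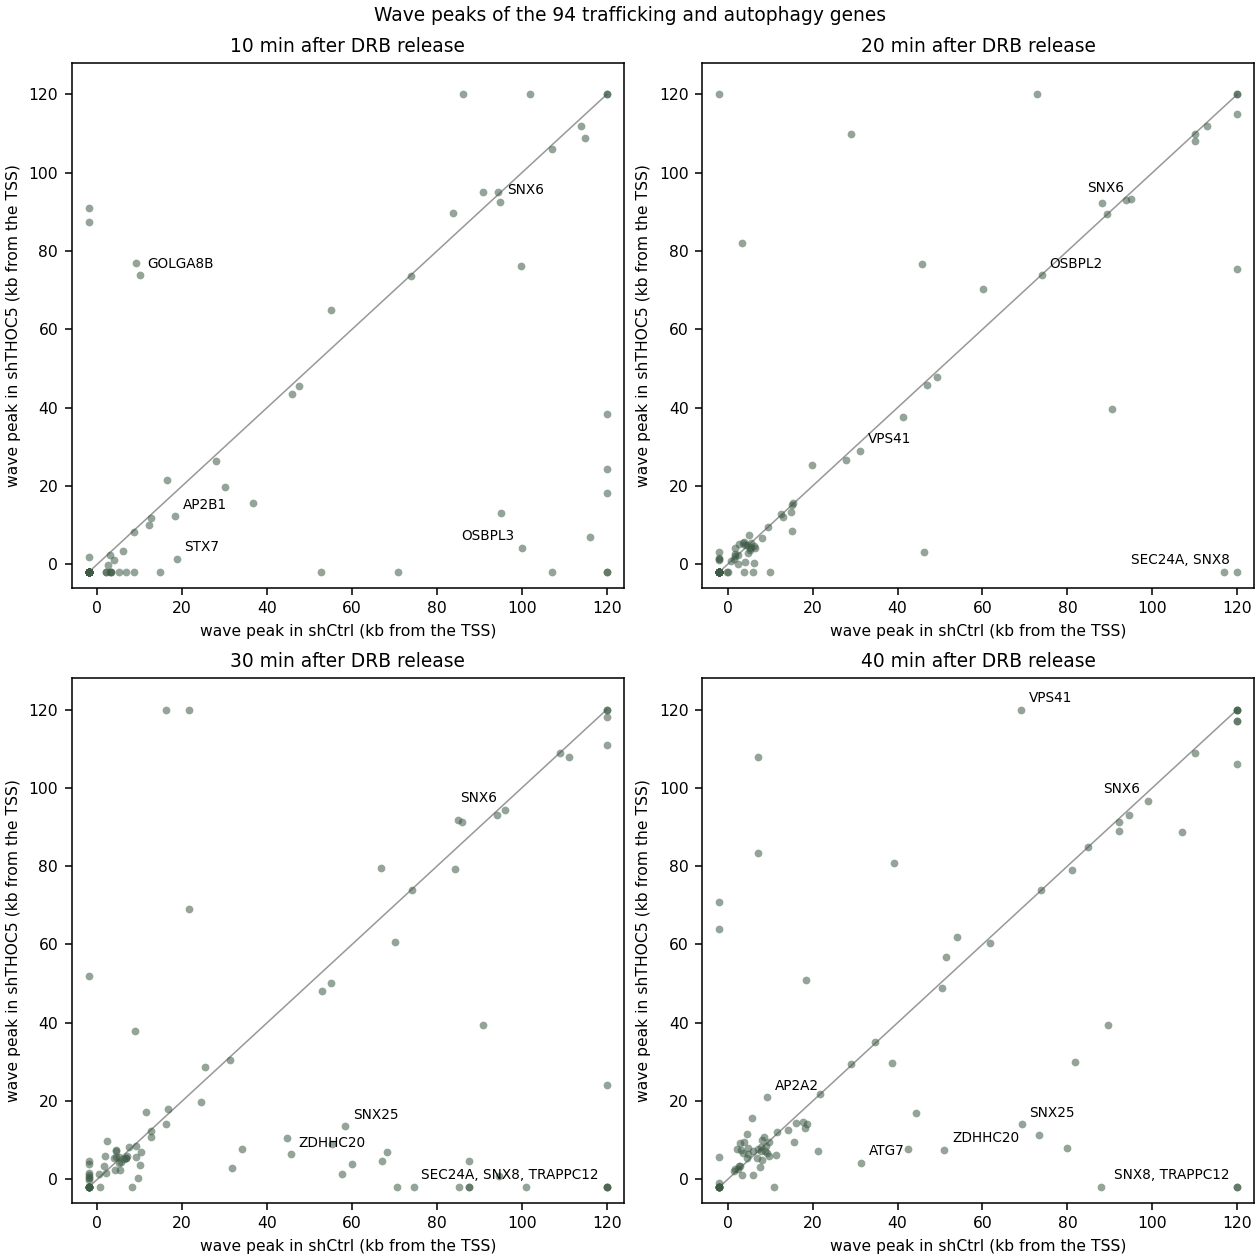
Wave peak of each of the 94 members in shCtrl (x axis) against shTHOC5 (y axis), in kb from the TSS, at each release time, with 1 library per axis and equality as the grey line. Points on the bottom edge were called at the first position of the window (-2.0 kb), and at 30 min the band of points below the line at 30 to 120 kb on the x axis holds genes such as ZDHHC20 (45.6 kb in shCtrl and 6.39 kb in shTHOC5) and SNX25 (58.4 and 13.5 kb).

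Many calls were at the edges of what the window allows. The first position of the window was the call in 43 members in shCtrl and 54 in shTHOC5 at 10 min, in 32 and 34 at 20 min, in 17 and 20 at 30 min and in 12 each at 40 min. The 10 min counts are 45.7% and 57.4% of the members, against 33.8% and 47.5% of all genes, so the share was higher in shTHOC5 over all genes too. At the later times all genes had 27.0% and 30.2%, 18.9% and 21.2%, and 15.6% and 15.0%. In 6 members (6.38%, all genes 7.80%), AP4S1, ATG2B, ATG4A, EXOC5, STXBP4 and ZDHHC14, this was the call in all 8 libraries. At the other end, more than 40 kb from the TSS, lay 27, 22, 37 and 31 members in shCtrl and 20, 20, 20 and 26 in shTHOC5 at the 4 times. A distance over 40 kb after 10 min of release was thus called in 28.7% of the members in shCtrl and 21.3% in shTHOC5 (all genes 41.8% and 32.2%). The share of members over 40 kb was lower in shTHOC5 at every time, with overlapping intervals throughout. At 30 min it was 39.4% (30.1% to 49.5%) in shCtrl and 21.3% (14.2% to 30.6%) in shTHOC5, where all genes had 41.1% and 31.0%. The share of all genes was likewise lower in shTHOC5 at 20 min (34.5% and 29.1%) and 40 min (39.9% and 36.2%).

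**Figure D2:**
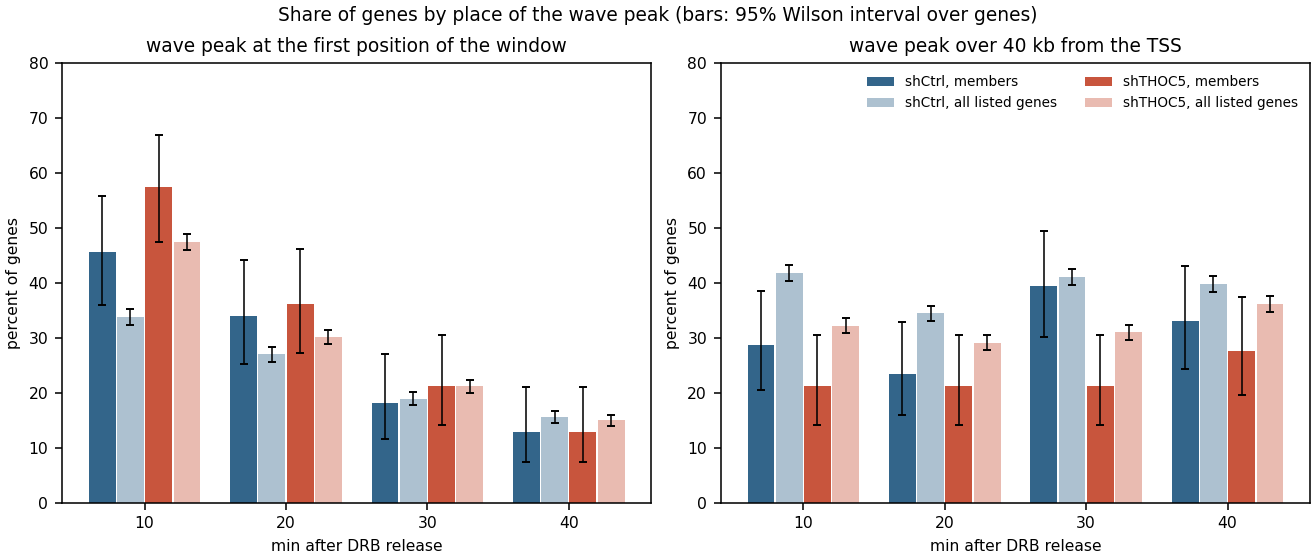
Percent of genes whose wave peak was called at the first position of the window (left) or over 40 kb from the TSS (right), by min after DRB release, for the members (dark) and all 4592 listed genes (light) in shCtrl (blue) and shTHOC5 (red), with 95% Wilson intervals over genes as bars. At 30 min 39.4% of the members lay over 40 kb in shCtrl and 21.3% in shTHOC5.

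A wave peak that moves downstream at each step is what synchronously released Pol II would give. The wave peaks of 14 members were in strict order over the 4 times in shCtrl (14.9%, all genes 13.2%) and those of 34 members in shTHOC5 (36.2%, all genes 31.3%). Both series were in order in 11 members (11.7%, all genes 9.23%), shTHOC5 only in 23 (24.5%, all genes 22.1%) and shCtrl only in 3 (3.19%, all genes 4.01%). Upstream steps were the counterpart: between 10 and 20 min, 27 members moved back towards the TSS in shCtrl and 13 in shTHOC5, and between 30 and 40 min, 33 and 18 did. These are 28.7% and 13.8% of the members at the earlier step (all genes 32.2% and 20.9%) and 35.1% and 19.1% at the later one (all genes 34.9% and 20.8%). The authors' filters kept 6 members in shCtrl (6.38%, all genes 4.92%), namely AP2A2, SNX25, SNX4, SNX6, VPS53 and ZDHHC20, and 11 in shTHOC5 (11.7%, all genes 10.0%), namely AP2A2, ATG16L1, OSBPL2, OSBPL9, SEC23A, SNX6, STX7, TRAPPC8, VPS13A, VPS41 and ZDHHC20. For both order and filters, the members' shares were close to those of all genes.

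The 3 members kept in both series behaved in 3 ways. AP2A2 (ENSG00000183020, chr11:924881-1012245, plus strand), the large alpha subunit of the AP2 adaptor of clathrin-mediated endocytosis, had its wave peak at 5.98, 7.99, 9.14 and 9.18 kb at 10, 20, 30 and 40 min in shCtrl and at 3.39, 6.77, 8.53 and 20.9 kb in shTHOC5. It lay nearer in shTHOC5 at 10, 20 and 30 min, by 2.59, 1.23 and 0.607 kb, and 11.7 kb farther at 40 min. The deposited rate was 0.255 kb/min in shCtrl and 0.509 kb/min in shTHOC5, although up to 30 min the series stayed within 2.59 kb of each other. All 8 positions lie in introns of AP2A2.

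ZDHHC20 (chr13:21348784-21459370, minus strand), an enzyme that attaches palmitate to membrane proteins, showed the reverse. Its wave peak was at 3.00 and 3.66 kb at 10 and 20 min in shCtrl and at 2.38 and 5.31 kb in shTHOC5. It then stood at 45.6 and 51.0 kb in shCtrl but at 6.39 and 7.42 kb in shTHOC5 at 30 and 40 min. The series were within 2 kb of each other up to 20 min and 39.2 and 43.6 kb apart afterwards. The rate was 1.49 kb/min in shCtrl and 0.228 kb/min in shTHOC5, a ratio of 0.154. Between 20 and 30 min the control wave advanced by 42.0 kb and that of shTHOC5 by 1.08 kb. The width deposited for this gene, 86800 bp, is not that of GENCODE release 44.

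SNX6 (chr14:34561093-34630160, minus strand), a sorting nexin of the retromer pathway from endosomes to the Golgi, had its wave peak at 94.8, 95.1, 96.0 and 99.0 kb in shCtrl and at 92.5, 93.2, 94.4 and 96.6 kb in shTHOC5. The shTHOC5 value was the lower at every time, by 1.57 to 2.39 kb. The gene, however, is 69068 bp wide, and all 8 positions lie beyond its end and within EAPP, a coding gene on the same strand. The rates of 2.03 and 1.99 kb/min, with a ratio of 0.981, therefore count a distance from the window start, upstream of SNX6, to a place past its end. Over the 4 release times alone the wave moved at 0.134 kb/min in shCtrl and 0.137 kb/min in shTHOC5.

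With ratios of 1.99, 0.981 and 0.154, the median of the kept members was 0.981. Of the 3, 1 had a rate more than 20% lower in shTHOC5 (ratio under 0.8, all 110 genes kept in both series 20.0%) and 1 a rate more than 25% higher (3.64%). The 110 genes had a median ratio of 0.956 (0.929 to 0.979). Among the 11 members in order in both series the median ratio was 0.765 (0.225 to 1.71) and 8 were lower in shTHOC5, against 0.938 (0.916 to 0.956) and 298 of 424 for all such genes.

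**Figure D3:**
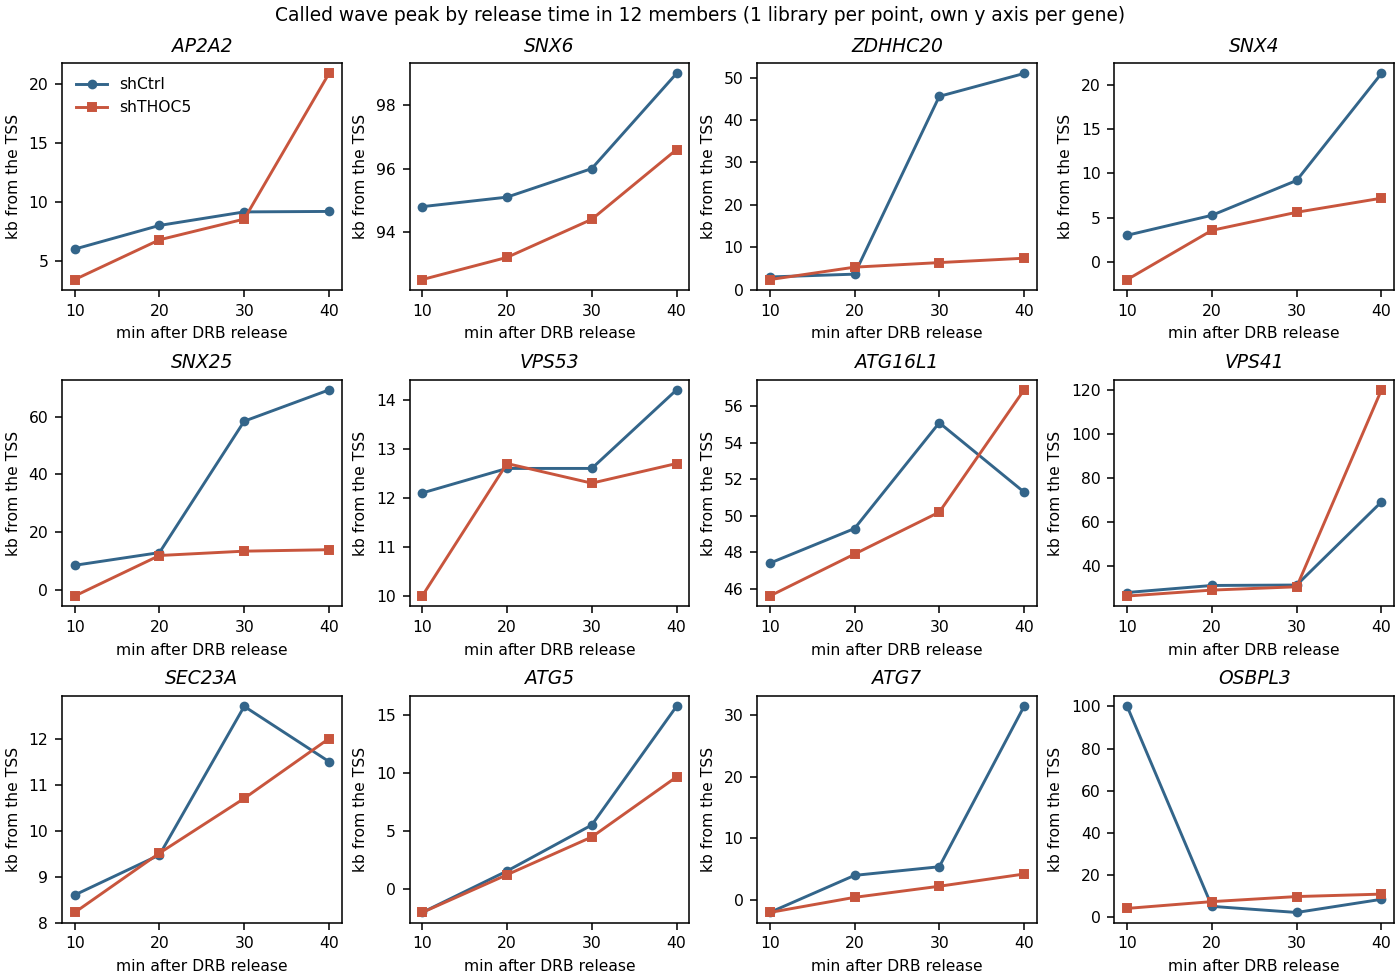
Called wave peak in kb from the TSS (y axis, own range for each gene) against min after DRB release (x axis) in 12 members, shCtrl in blue circles and shTHOC5 in red squares, with 1 library per point and no error bars. The series of SNX25, ZDHHC20 and ATG7 parted at 30 or 40 min, those of SNX6 ran 1.57 to 2.39 kb apart, and those of AP2A2 and VPS41 crossed between 30 and 40 min.

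Coats and adaptors come first in a carrier's life. In AP2B1, the beta subunit of the same AP2 adaptor, the wave peak was at 18.4, -2.0, 16.7 and 21.7 kb in shCtrl and at 12.2, -2.0, 18.0 and 21.9 kb in shTHOC5. Both series thus fell back to the first position at 20 min and agreed within 1.29 kb at the 2 later times. AP1B1, which serves the AP1 adaptor of the trans-Golgi network and had the highest control coverage of the members (1669 rpm), was called at the last position, 120 kb, in all 8 libraries. AP1B1 is 60.9 kb wide, so that position lies beyond its end, within EWSR1 on the opposite strand. Over the 7 adaptor genes the 10 min median difference was -2.59 kb, and those of the 3 later times were 0 kb.

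Among the 9 SEC genes the COPII coat subunit SEC23A was kept in shTHOC5. Its wave peak lay at 8.60, 9.47, 12.7 and 11.5 kb in shCtrl and at 8.22, 9.51, 10.7 and 12.0 kb in shTHOC5, so the series differed by at most 2.04 kb and the control series stepped back at 40 min. SEC24A, a cargo-binding COPII subunit, was at -2.0, 117, 120 and 120 kb in shCtrl and at -2.0, -2.0, -2.0 and 120 kb in shTHOC5. All its values over 100 kb lie past the gene end, within DDX46 on the same strand. SEC63, a partner of the translocon of the endoplasmic reticulum, went from 3.17 to 1.72, 4.48 and 9.73 kb in shCtrl and from -2.0 to 4.07, 7.53 and 9.52 kb in shTHOC5, ahead of control at 20 and 30 min and level with it at 40 min. SEC14L1, a protein with a SEC14 lipid-binding domain, stayed within 2 kb of the TSS in every library. Over the family, 6 of 9 members lay more than 1 kb nearer in shTHOC5 at 30 min (all genes 46.6%) and 2 farther (all genes 21.5%). The count of 6 includes SEC24A with its control call past the gene end. The median difference of -4.62 kb is the value of SEC16B, which had 2.86 rpm in shCtrl and 2.02 rpm in shTHOC5. At 40 min 2 of 9 lay more than 1 kb nearer (all genes 40.8%), 0 farther (all genes 28.4%) and 7 within 1 kb. These 7 include SEC24A and SEC14L5, both called at 120 kb under both hairpins, past the gene end.

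Most sorting nexins lay nearer to the TSS in shTHOC5 at 30 min. At that time 10 of the 12 lay more than 1 kb nearer (all genes 46.6%) and 1 farther (all genes 21.5%), with a median difference of -6.50 kb and medians of 62.7 kb in shCtrl and 6.56 kb in shTHOC5. At 10, 20 and 40 min 6, 6 and 7 of them lay nearer and 2, 0 and 4 farther. SNX25 (chr4:185204237-185370185, plus strand) was at 8.61, 13.0, 58.4 and 69.2 kb in shCtrl and at -2.0, 12.0, 13.5 and 14.0 kb in shTHOC5. SNX4 (chr3:125446650-125520202, minus strand), which recycles receptors from early endosomes, was at 3.01, 5.27, 9.21 and 21.3 kb in shCtrl and at -2.0, 3.57, 5.61 and 7.20 kb in shTHOC5. In both genes all 4 positions were nearer in shTHOC5 and the gap was widest at 40 min, 55.3 kb in SNX25 and 14.1 kb in SNX4. The authors' filters kept these genes in shCtrl only. Not every value that went into the count of 10 was inside its gene. SNX8 was called at 120 kb in shCtrl at 20, 30 and 40 min, past its end, and at -2.0 kb in every shTHOC5 library. The 30 min calls of SNX6 and of SNX31 (111 kb in shCtrl) were also past the gene end. The control calls of SNX7, SNX10 and SNX13 were at 87.5, 67.1 and 57.6 kb at 30 min but at 3.10, -2.0 and -2.0 kb at 40 min. Only 7 of the 12 had at least 100 rpm in both series.

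Of the 10 VPS genes, 4 lay more than 1 kb nearer and 3 farther at 30 min (all genes 46.6% and 21.5%). VPS53, a subunit of the GARP complex that tethers endosome carriers to the Golgi, moved little: 12.1, 12.6, 12.6 and 14.2 kb in shCtrl and 10.0, 12.7, 12.3 and 12.7 kb in shTHOC5. VPS13A, a lipid transport protein of membrane contacts, went from 3.88 to 3.76, 4.33 and 7.84 kb in shCtrl and from 1.02 to 5.62, 7.23 and 8.22 kb in shTHOC5. Its shTHOC5 wave was thus behind at 10 min and ahead at the later times. VPS41, a subunit of the HOPS complex for fusion with lysosomes, was at 27.9, 31.1, 31.3 and 69.1 kb in shCtrl and at 26.3, 29.0, 30.5 and 120 kb in shTHOC5. The shTHOC5 wave of VPS41 lay slightly behind up to 30 min and 50.9 kb ahead at 40 min, where the call sits on the last position of the window. VPS45, a regulator of endosomal syntaxins, was called 87.6 and 87.9 kb from the TSS at 30 and 40 min in shCtrl, within PLEKHO1, and at -2.0 kb in every shTHOC5 library.

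The 9 tether genes differed by a median of 0 kb at 10 and 30 min, with -1.27 kb at 20 min and 0.189 kb at 40 min. EXOC2, an exocyst subunit, was at 2.46, 4.17, 4.30 and 4.67 kb in shCtrl and at -0.342, 5.01, 5.65 and 7.96 kb in shTHOC5, behind control at 10 min and ahead of it at the 3 later times. TRAPPC8, which belongs to the TRAPP complex used in autophagy, was at 12.7, 14.8, 16.2 and 16.0 kb in shCtrl and at 11.9, 13.4, 14.1 and 14.4 kb in shTHOC5. TRAPPC10, of the TRAPP complex that acts at the Golgi, was at -2.0, 5.88, 6.82 and 9.34 kb in shCtrl and at -2.0, -2.0, 5.54 and 6.75 kb in shTHOC5. In both TRAPP genes no shTHOC5 value was above its control, with gaps of up to 2.05 kb in TRAPPC8 and 7.88 kb in TRAPPC10. TRAPPC12 was at -2.0 kb in all libraries except those of shCtrl at 30 and 40 min, which were called at 120 kb, past the gene end.

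Among the 9 syntaxins and STXBP genes, STX7, a syntaxin of late endosomes, was at 18.7, 4.61, 5.13 and 8.80 kb in shCtrl and at 1.41, 4.94, 5.62 and 7.17 kb in shTHOC5. Its series differed by 17.3 kb at 10 min and by less than 2 kb thereafter, and only the shTHOC5 series was in order. The 7 synaptotagmins all had less than 100 rpm in both series. Their median coverage was 12.9 rpm in shCtrl and 25.0 rpm in shTHOC5, and their median difference was -6.20 kb at 10 min and reached 12.7 kb at 30 min. SYT7, the best covered of them with 58.3 and 71.2 rpm, was called between 102 and 120 kb in every library, beyond its end.

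OSBPL3 (chr7:24796540-24981634, minus strand), an oxysterol-binding protein of contacts between the endoplasmic reticulum and the plasma membrane, was at 100.0, 5.09, 2.19 and 8.44 kb in shCtrl and at 4.12, 7.34, 9.74 and 10.9 kb in shTHOC5. The control wave was far downstream at 10 min and then close to the TSS, whereas the shTHOC5 wave advanced at each step and lay 2.25, 7.55 and 2.47 kb ahead of control at 20, 30 and 40 min. The control rate of -0.769 kb/min is therefore negative and has no meaning as a speed, against 0.314 kb/min in shTHOC5. OSBPL9 was at 45.9, 47.0, 53.0 and 50.4 kb in shCtrl and at 43.4, 45.7, 48.0 and 48.8 kb in shTHOC5, nearer at every time by 1.23 to 4.95 kb. OSBPL2 stood between 73.5 and 74.1 kb in all 8 libraries, beyond its own end and inside ADRM1, at all 4 times. OSBPL11 was called at the first position in 5 libraries, and its values of 85.2 kb in shCtrl at 30 min and 83.4 kb in shTHOC5 at 40 min lie inside its neighbour SNX4. The windows of OSBPL11 and SNX4 overlap by 46705 bp, and at these 2 points the calls of both genes lay within 1 kb of each other, the closest 693 bp apart. Over the 8 OSBPL genes the median difference was -2.29, -0.0850, -1.40 and -0.239 kb.

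The 9 palmitoyltransferases had median differences between -0.123 and 0.0540 kb. ZDHHC11 and ZDHHC11B are near-identical neighbours on chr5 whose windows overlap by 47756 bp. The 8 pairs of calls lay 65 to 543 bp apart in the genome, so both genes report 1 signal, and neither can be read as a wave of its own. ZDHHC11B gave 16.3, 15.1, 11.5 and 17.7 kb in shCtrl and 21.4, 15.1, 17.1 and 14.7 kb in shTHOC5, with no order in either series.

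Autophagy genes included a pair in order in both series. ATG7 (chr3:11272309-11557665, plus strand), the activating enzyme that charges ATG8 and ATG12, was at -2.0, 4.01, 5.41 and 31.4 kb in shCtrl and at -2.0, 0.448, 2.25 and 4.23 kb in shTHOC5. ATG5 (chr6:106045423-106325791, minus strand), the acceptor of ATG12, was at -2.0, 1.56, 5.51 and 15.7 kb in shCtrl and at -2.0, 1.24, 4.48 and 9.64 kb in shTHOC5. Both started at the first position at 10 min and lay nearer in shTHOC5 at all later times, by 27.1 kb in ATG7 and 6.06 kb in ATG5 at 40 min. ATG16L1, which with ATG5 and ATG12 directs lipidation at the growing membrane, was at 47.4, 49.3, 55.1 and 51.3 kb in shCtrl and at 45.6, 47.9, 50.2 and 56.9 kb in shTHOC5, behind up to 30 min and 5.61 kb ahead at 40 min. WDFY3, which links aggregates to autophagosomes, was ahead in shTHOC5 by 2.69, 0.922 and 5.70 kb at 20, 30 and 40 min. Over the 9 ATG and WDFY genes 5 lay more than 1 kb nearer in shTHOC5 at 30 min and 5 at 40 min (all genes 46.6% and 40.8%). At these times 1 and 2 lay farther (all genes 21.5% and 28.4%), with median differences of -1.03 and -4.80 kb. Only 4 of the 9 had at least 100 rpm in both series, namely ATG5, ATG7, ATG16L1 and WDFY3. Of these, ATG5 and ATG7 lay nearer at 40 min, and ATG16L1 and WDFY3 farther. Both counts of 5 include WDFY4, which had 3.17 rpm in shCtrl and 1.62 rpm in shTHOC5. The -4.80 kb is the value of ATG4C (99.7 and 156 rpm).

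The remaining members are few. ITSN1, an intersectin scaffold of endocytosis, was at -2.0, -2.0, 1.67 and 9.72 kb in shCtrl and at -2.0, -2.0, 3.44 and 5.92 kb in shTHOC5. NBEAL1, of the neurobeachin family, was at -2.0, -2.0, 9.65 and 1.41 kb in shCtrl and at -2.0, -2.0, 0.308 and 2.06 kb in shTHOC5. GOLGA8B, a golgin of a multigene family on chr15, was at 10.0, 45.8, 84.2 and 81.0 kb in shCtrl and between 73.8 and 79.4 kb in shTHOC5, mostly past its end. Reads of such a family can be split between copies, so its values are uncertain.

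**Figure D4:**
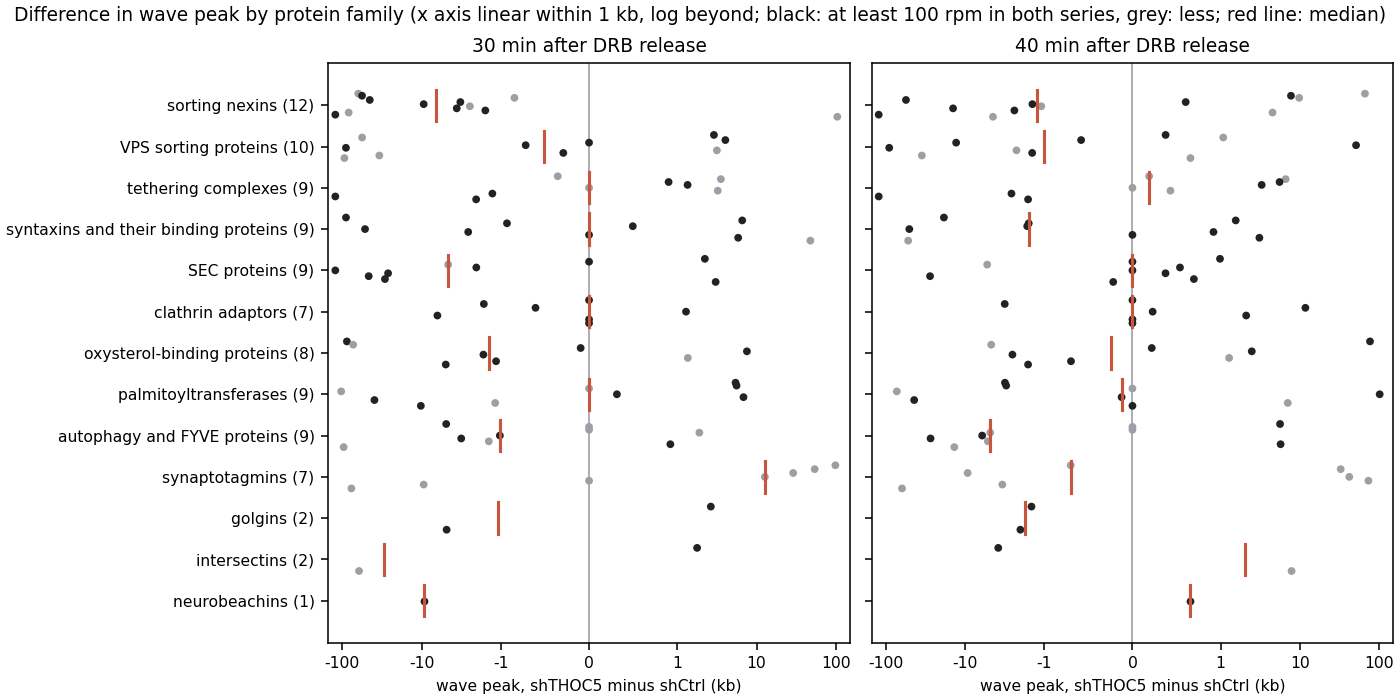
Wave peak in shTHOC5 minus that in shCtrl in kb (x axis, linear within 1 kb and logarithmic beyond) for each member by protein family (y axis, number of members in brackets) at 30 and 40 min, with 1 library per hairpin and time. Black points have at least 100 rpm in both series, grey points less, and the red line is the family's median, which for the sorting nexins was -6.50 and -1.25 kb at these times.

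The start from which a wave is counted also matters for these genes. In 11 of the 78 members with a RefSeq window, the nearest RefSeq start lies more than 5 kb inside the GENCODE gene. In 1 member, OSBPL9, it lies more than 5 kb before the gene, at -58907 bp from the GENCODE start. For ATG16L1 it lies 41.6 kb inside, and counted from there the wave peak was at 5.81, 7.69, 13.4 and 9.64 kb in shCtrl and at 3.99, 6.30, 8.54 and 15.2 kb in shTHOC5. For VPS41 it lies 23.2 kb inside, which puts the first 3 calls at 4.68, 7.89 and 8.05 kb in shCtrl and at 3.12, 5.83 and 7.33 kb in shTHOC5. SEC23A, with a start 6.41 kb inside, had values from 2.18 to 6.28 kb in shCtrl and from 1.81 to 5.60 kb in shTHOC5. Differences between the hairpins do not depend on this choice, but the rates do. The authors' fit includes a point at 0 min at the start of the window, 2 kb upstream of the TSS. ATG16L1 had a deposited rate of 1.14 kb/min in shCtrl and 1.22 kb/min in shTHOC5, and a slope over the 4 release times alone of 0.172 and 0.360 kb/min.

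Of the 94 members, 51 are shorter than the 120 kb window (54.3%, all genes 57.9%), and calls beyond the gene end were frequent. There were 12, 14, 18 and 17 among the 91 members of matching width in shCtrl and 11, 13, 13 and 17 in shTHOC5, of which 6, 8, 10 and 9 and 6, 7, 7 and 8 lay in another coding gene on the same strand. Over all listed genes 16.1% to 18.2% of the calls were beyond the end in shCtrl and 15.2% to 17.6% in shTHOC5. In 10 members (10.6%, all genes 9.10%), AP1B1, OSBPL2 and SNX6 among them, all 8 calls were beyond the end. At 10 min more calls lay before the gene (41 in shCtrl and 53 in shTHOC5) than in introns (36 and 25). At 20, 30 and 40 min introns held 42, 52 and 61 calls in shCtrl and 37, 52 and 56 in shTHOC5, and at most 7 lay in exons in any library.

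The coverage of the window, deposited once per gene and hairpin as a measure of labelled RNA, had a median of 155 rpm in shCtrl and 171 rpm in shTHOC5 over the members, and the median ratio was 1.18 (1.06 to 1.33) against 1.09 for all genes. In bulk cells a change in the number of labelled cells and in the RNA per cell cannot be told apart. Of the 70 members with at least 100 rpm in a series, 19 had a ratio of at least 1.5 (27.1%, all genes 20.6%) and 6 a ratio of at most 1/1.5 (8.57%, all genes 11.3%). The ratios in these 70 ran from 0.405 to 2.83, with a median of 1.11 (0.956 to 1.30) against 1.05 for all genes so covered. The interval of these better covered members thus includes no change in coverage. For the 61 members that reach this coverage under either hairpin alike, the median was 1.06. GOLGA8B stood at 957 rpm in shCtrl and 2710 rpm in shTHOC5, ZDHHC11 at 410 and 879 rpm, and ZDHHC11B at 567 and 1303 rpm, all genes with close copies. ZDHHC20 had 173 and 291 rpm, and its wave in shTHOC5 was the one that stayed near the TSS. On the lower side stood SEC14L5 (251 and 102 rpm), OSBPL3 (313 and 171 rpm), and VPS35L, a subunit of the retriever complex (354 and 171 rpm). AP2A2 had 517 and 386 rpm and SNX6 had 744 and 549 rpm. The total is shared with 1 listed gene that took 7.36% of it in shCtrl and 8.00% in shTHOC5, which leaves the other genes a ratio of 0.993.

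**Figure D5:**
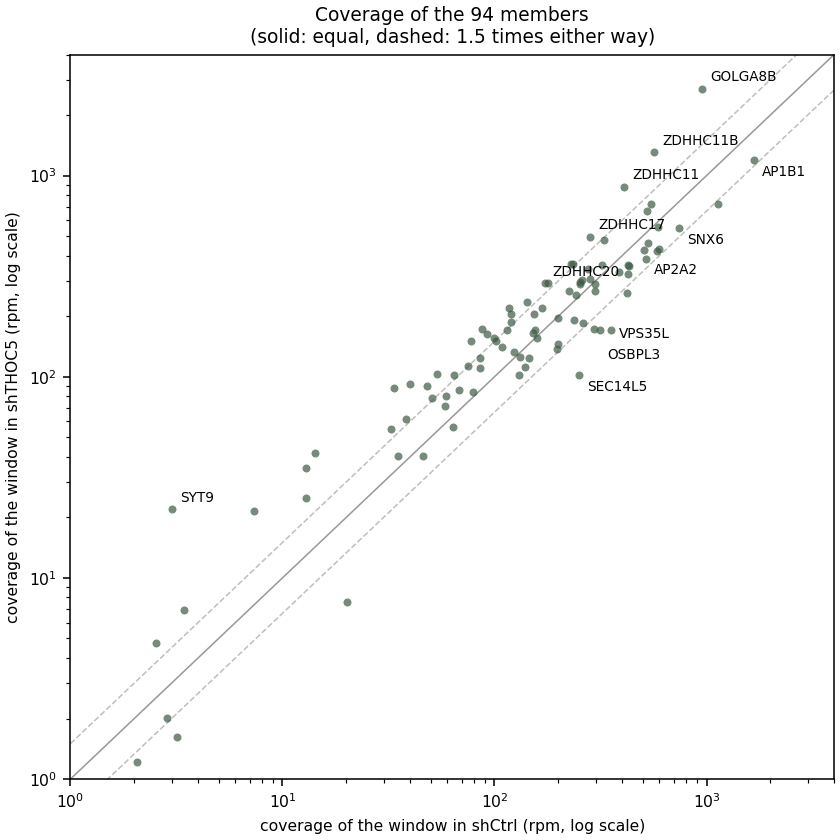
Coverage of the window of each of the 94 members in shCtrl (x axis) and shTHOC5 (y axis) in rpm on log scales, 1 value per gene and hairpin, with equality as the solid line and 1.5 times either way as dashed lines. GOLGA8B, ZDHHC11 and ZDHHC11B lie above the upper dashed line, and SEC14L5, OSBPL3 and VPS35L below the lower one.

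The study lists 626 genes as dependent on THOC5 by their choice of 3′ end in Nanopore libraries, a readout other than this one. Of the 4592 listed genes 230 are on that list. Among them are 9 members: AP2B1, ITSN1, OSBPL3, OSBPL9, SEC14L1, SEC24A, SEC63, STX7 and ZDHHC20. Their waves did not go one way. More than 1 kb nearer in shTHOC5 were 5, 3, 3 and 4 of them at 10, 20, 30 and 40 min. More than 1 kb farther were 0, 3, 5 and 1, with median differences of -2.44, 0, 1.29 and -0.218 kb. Over all genes 41.1%, 41.0%, 46.6% and 40.8% lay nearer and 16.9%, 20.0%, 21.5% and 28.4% farther. Of the study's 213 independent genes, 42 are among the listed genes, and AP1G1 is the only member. It was at -2.0, 3.90, 4.06 and 8.17 kb in shCtrl and at -2.0, -2.0, 2.42 and 5.02 kb in shTHOC5, nearer from 20 min on.

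A list of other trafficking genes whose symbols fall outside the families above, such as clathrin, COPI, dynamin and ESCRT genes, holds 53 listed genes. Of these, 26, 26, 24 and 24 lay more than 1 kb nearer in shTHOC5 at the 4 times and 3, 10, 9 and 14 more than 1 kb farther, and their median differences were -0.648, -0.710, -0.929 and -0.479 kb. The median control wave of these genes was at 2.62, 6.04, 8.62 and 9.60 kb. Their median differences lay below 0 at each time, with intervals that reach 0. Those of the 94 members did so at 30 min only, and this gap between the groups was not tested.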

How the data were processed

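TT-seq libraries of HEK293 cells were analysed for 2 hairpins and 4 release times, 1 library each. The authors aligned the reads, normalized coverage to sequencing depth and called a wave peak per gene and time. The aligner used for these libraries is not given in the sources used here. The deposited coverage column is named for RPKM but sums to 1000000 over the 4592 genes and was read as RPM. The wave peaks and rates (kb/min) deposited by the authors were treated as score values. The mark of the authors' filters was used as deposited. Least squares with a point at 0 min at the start of the window returned the deposited rate of all 4592 genes.

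The members and lists were chosen with earlier results of these data known. Genes named were OSBPL3, AP2A2 and ZDHHC20, members kept in both series, up to 12 kept in 1 series, the best covered of each family, the 3 farthest back and the 3 farthest ahead at 40 min among members in order with 100 rpm in both series, and members on the THOC5-dependent list with that coverage. A few more were named after their values were seen, among them AP1G1, SNX8, TRAPPC12, VPS45, WDFY3, ZDHHC11, VPS35L and SEC14L5. Of the genes the rule gives, 1 is not reported here. Symbols and coordinates came from GENCODE release 44 (GRCh38) and promoters from RefSeq. Functions were tested on simulated data. Python 3.11.15, numpy 2.4.6, pandas 2.3.3, scipy 1.17.1 and matplotlib 3.10.9 were used. Depth per library, and so the precision it gives, is unknown.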

Additional observations from a re-analysis of the deposited data

Results flagged for a closer look

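In 5 of the named members that the authors' filters kept in at least 1 series, the sign of the difference between the hairpins changed by more than 1 kb to either side between release times. The largest distance by which the shTHOC5 wave lay ahead was 11.7 kb at 40 min for AP2A2, 5.61 kb at 40 min for ATG16L1, 2.90 kb at 30 min for VPS13A, 50.9 kb at 40 min for VPS41 and 1.65 kb at 20 min for ZDHHC20. The filters kept 6 members in shCtrl and 11 in shTHOC5, of which 3 in both. Such changes of sign were not counted over all listed genes. They also occurred in members that the filters did not keep, such as OSBPL3, SEC63 and EXOC2. With 1 library per hairpin and time, the change of sign was not tested. The VPS41 value rests on a call at the last position of the window.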

How the results depend on the processing

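Of 81 alternatives 50 left the value within its interval, range or 1.5 times its count, 30 moved it and 1 reversed it. The median difference at 10, 20, 30 and 40 min became -8.79, -0.577, -14.3 and -3.88 kb as a mean, and -1.56, -1.23 and -2.38 kb at 10, 20 and 40 min over the 11 members in order in both series. Without calls at the first position the 10 and 20 min values were -2.09 and -0.246 kb, and with at least 100 rpm and the wave inside the gene in both series, an alternative chosen after seeing the data, -2.26 and -1.15 kb. None of these values was above 0. Counted over 5 kb, 11, 28 and 20 members were nearer at 20, 30 and 40 min and 8 and 12 farther at 20 and 30 min. Counted at any difference, 27 and 37 were farther at 20 and 40 min. With 100 rpm in both series, which leaves 61 members, 23 and 27 were nearer at 10 and 40 min and 5, 9, 14 and 13 farther at the 4 times. With ties allowed 38 members were in order in shCtrl and 64 in shTHOC5. Leaving out the 10, 20, 30 or 40 min time gave 28, 22, 28 and 27 in shCtrl, since 3 points are easier to order than 4. The median rate ratio of the 3 members kept in both series was reversed to 1.02 over the 4 release times alone, so no direction can be read from it. No paired analysis was possible by replicate number because each hairpin and time is 1 library, and a fit over the 4 pairs matched by time was not run. Depth is unknown, and positions in genes under 100 rpm, such as the synaptotagmins, rest on little signal.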
